A study of Mus musculus with 12 samples.

Results

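The genes described here are 10 imprinted genes of the fetal growth network, H19, Igf2, Dlk1, Meg3, Mest, Peg3, Plagl1, Cdkn1c, Grb10 and Igf2r, followed through the liver of P14 mice in which hepatocytes cannot divide. They were chosen by name as 10 of the 47069 genes listed in the deposited table, and all 10 are among the 17386 genes with a mean of at least 0.1 FPKM over the libraries (fragments counted per kilobase of transcript, scaled to the size of the library). There are 12 RNA-seq libraries, 3 from each of 4 groups: hepatocytes isolated from wild type (WT) mice, hepatocytes isolated from Cdk1 Liv-/- mice, and whole liver of either genotype. Cdk1 Liv-/- mice carry loxP-flanked Cdk1 alleles and the Albumin-Cre transgene, so that Cdk1, the kinase that drives entry into mitosis, is deleted in cells of the hepatocyte lineage and kept in the other cells of the liver. All mice were 14 days old and drug treatments were not part of the design. Whether hepatocytes and whole liver came from the same animals is not given, and p-values measure the spread between the 3 libraries of a group.

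An imprinted gene is read mainly from the copy inherited from the mother or mainly from that of the father. Many paternally expressed members, such as Igf2, promote growth before birth, many maternally expressed ones, such as Cdkn1c, Grb10 and Igf2r, restrain it, and several are switched down in liver and other organs after birth. FPKM values add up the reads of both parental copies, so the data hold levels of these genes and not the state of their imprints.

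The members lie in clusters that share control elements. In GRCm38, the noncoding gene H19 lies at chr7:142575529-142578143 and Igf2 at chr7:142650766-142666816, 72.6 kb apart and both on the minus strand, and Cdkn1c lies further along at chr7:143458339-143461050 on the same strand. Dlk1 (chr12:109452823-109463336) and the noncoding gene Meg3 (chr12:109541001-109571726) are 77.7 kb apart on the plus strand. Mest (chr6:30723547-30748465) and Plagl1 (chr10:13060504-13131694) are on the plus strand, and Peg3 (chr7:6703892-6730431), Grb10 (chr11:11930508-12038683) and Igf2r (chr17:12682406-12769664) on the minus strand. Airn overlaps Igf2r, Copg2 overlaps Mest and Igf2os overlaps Igf2, each on the opposite strand, and whether the counting used strand is not given in the sources used here, so reads of these pairs may not be fully separated.

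Several members are also hosts of microRNAs, which is why their mature sequences are shown here. The sequences and positions are those of RefSeq on GRCm38.p6, written 5′ to 3′ with the seed (bases 2 to 8) in capitals. The miR-675 arms lie in an exon of H19 (3 of 7 annotated transcripts), those of miR-770 in an exon of 1 of 11 transcripts of Meg3, and those of miR-335 in introns of Mest. No pair of these 6 arms shares a seed.
mmu-miR-675-5p (H19, chr7:142577112-142577133): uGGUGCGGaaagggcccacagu
mmu-miR-675-3p (H19, chr7:142577078-142577099): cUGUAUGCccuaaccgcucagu
mmu-miR-770-5p (Meg3, chr12:109563710-109563731): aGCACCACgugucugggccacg
mmu-miR-770-3p (Meg3, chr12:109563744-109563765): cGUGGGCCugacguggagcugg
mmu-miR-335-5p (Mest, chr6:30741314-30741336): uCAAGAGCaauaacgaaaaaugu
mmu-miR-335-3p (Mest, chr6:30741354-30741375): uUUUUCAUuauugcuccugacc
Libraries of polyadenylated RNA measure the host transcripts and not the mature microRNAs, and the hairpin genes Mir675, Mir770 and Mir335 are listed at 0 in all 12 libraries. So is Mir483, in an intron of Igf2. Mir1906-1, in exons of 5 of 11 Meg3 transcripts, is listed at 0 in Cdk1 Liv-/- whole liver and at 1.6 to 5.07 FPKM in WT whole liver. In hepatocytes it is at 0 to 0.8 in WT and at 0, 10.7 and 0 in Cdk1 Liv-/-. These are values of a short gene that lies inside its host. It was called lower in Cdk1 Liv-/- whole liver (log2 fold change -2.69, limma adjusted p = 0.00471), where Meg3 was higher. How reads of the shared bases were divided between them was not tested.

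The promoters of 4 members called between the genotypes are shown (Meg3, higher in Cdk1 Liv-/- hepatocytes and whole liver, Dlk1, higher in whole liver, and Mest and Plagl1, lower in hepatocytes) as the 250 bases before a RefSeq gene start. Cdkn1c, also called lower in hepatocytes, is not shown, since the promoter set used here has no entry for it or for H19. Capitals mark matches to 3 letter strings searched on both strands. They are GGGGCCCC, which reads the same on either strand, TGCCGC, which on the other strand is read as GCGGCA, and TATAAA, which on the other strand is read as TTTATA and can overlap it in 1 stretch. Meg3 is shown at chr12:109540746-109540995, Dlk1 at chr12:109452573-109452822, Mest at chr6:30737800-30738049 and Plagl1 at chr10:13090582-13090831, all on the plus strand.
Meg3: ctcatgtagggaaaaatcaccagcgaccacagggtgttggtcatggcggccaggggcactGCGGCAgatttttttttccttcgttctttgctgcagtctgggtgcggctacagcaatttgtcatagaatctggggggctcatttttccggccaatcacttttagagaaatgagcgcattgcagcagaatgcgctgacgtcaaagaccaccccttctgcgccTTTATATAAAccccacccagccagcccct
Dlk1: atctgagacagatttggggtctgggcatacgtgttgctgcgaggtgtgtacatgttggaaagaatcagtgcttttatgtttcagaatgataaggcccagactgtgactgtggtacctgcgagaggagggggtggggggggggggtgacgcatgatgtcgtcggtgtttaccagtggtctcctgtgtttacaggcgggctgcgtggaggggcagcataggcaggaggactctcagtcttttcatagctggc
Mest: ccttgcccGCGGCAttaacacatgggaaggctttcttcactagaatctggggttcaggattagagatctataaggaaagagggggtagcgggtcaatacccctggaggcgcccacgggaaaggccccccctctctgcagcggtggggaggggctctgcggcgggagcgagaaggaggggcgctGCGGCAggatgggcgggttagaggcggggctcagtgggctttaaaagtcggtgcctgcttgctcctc
Plagl1: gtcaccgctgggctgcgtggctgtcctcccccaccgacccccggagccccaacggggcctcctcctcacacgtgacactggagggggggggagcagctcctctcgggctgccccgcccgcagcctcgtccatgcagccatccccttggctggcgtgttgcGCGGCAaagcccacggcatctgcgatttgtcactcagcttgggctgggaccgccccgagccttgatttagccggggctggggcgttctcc
The Meg3 window holds GCGGCA 190 bases before the start and a stretch with TTTATA at 29 bases and then TATAAA at 25 bases before it, the Mest window holds GCGGCA at 242 and 67 bases and the Plagl1 window holds it at 90 bases, while none of these strings is in the Dlk1 window. Of 32851 mouse promoter windows of this length, 8.68% hold TGCCGC, 12.4% hold TATAAA and 0.889% hold GGGGCCCC on either strand. Of the 15 windows of the 8 members with an entry, 4 hold TGCCGC (among them another Mest window that is shifted by 3 bases and holds the same matches), 1 holds TATAAA and 1, that of Peg3, holds GGGGCCCC. The remaining window of Mest and that of Meg3, at other starts, hold none of the strings. A match is a string of letters and was not tested for binding.

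The libraries carried their labels in the targeted gene. Cdk1 was at 20.4 to 28.2 FPKM in WT hepatocytes and 6.87 to 11.8 in Cdk1 Liv-/- hepatocytes, and at 21.5 to 25.3 and 11.7 to 14.2 in whole liver. The values do not separate the deleted exon from the rest of the transcript. From the steps in the low values, 1 FPKM on 1 kb of transcript was estimated to stand for 34.9 to 49.9 reads in a library. Hepatocyte markers (8 genes such as Alb and Ttr) summed to 81693 to 90381 FPKM in WT hepatocytes, against 83429 to 85834 in the livers of WT mice, and to 54361 to 57946 in hepatocytes and 58847 to 66151 in whole liver of Cdk1 Liv-/- mice. Most of each sum is Alb, and in hepatocytes 2 of the 8 genes passed the adjusted p lower and 2, Cps1 and Hnf4a, higher. Without WT hepatocyte replicate 3, 2 passed lower and 0 higher. In whole liver 4 passed lower, Cps1 among them, and 0 higher, where 7.53% and 38.0% of all genes did. No gene of the lists of hepatocyte, stellate, endothelial, Kupffer, bile duct, erythroid and mesothelial markers was at 0 in all 3 libraries of any group, hepatocytes included. WT hepatocyte replicate 3 stood apart, with 322 FPKM summed over 14 stellate cell and fibroblast markers against 149 and 94.8 in replicates 1 and 2. Cdk1 Liv-/- whole liver replicate 3 had 158 FPKM of Xist and 0 of Ddx3y, Eif2s3y, Uty and Kdm5d, where the other 11 libraries had at most 0.14 of Xist and at least 14.3 of Ddx3y, although the methods name male mice only.

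**Figure D1:**
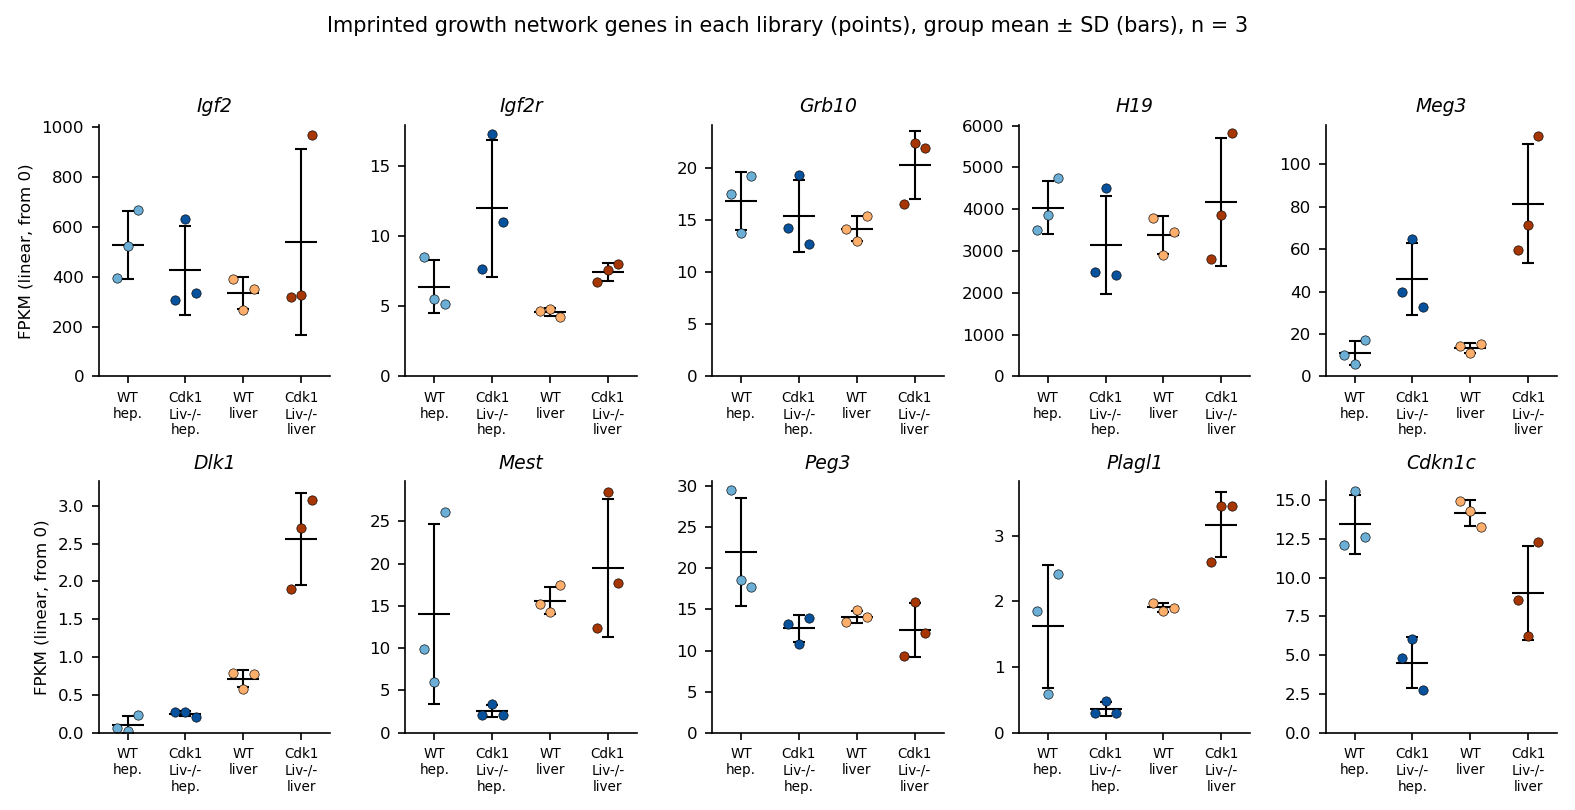
Level in FPKM (linear axis from 0) of each of the 10 genes in WT and Cdk1 Liv-/- hepatocytes (hep.) and whole liver, with 1 point per library and bars for the group mean ± SD (n = 3). Meg3 sits above WT in all 6 Cdk1 Liv-/- libraries, while Mest and Plagl1 sit below WT in the 3 Cdk1 Liv-/- hepatocyte libraries and not in whole liver.

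In levels per length, H19 and Igf2 stood far above the other members in every group. The mean FPKM of H19 ranked between place 21 and 29 of all 47069 listed genes, and that of Igf2 between 113 and 208. H19 did not overlap Igf2, and Igf2 did not overlap the third member, in any group. Below them the order in WT hepatocytes was Peg3 (21.98 ± 6.59 FPKM, SD, n = 3), Grb10, Mest, Cdkn1c, Meg3 and Igf2r (6.40 ± 1.86), where each gene overlapped its neighbour in the order. Plagl1 (1.62 ± 0.94) and Dlk1 (0.10 ± 0.11) were lowest and overlapped neither each other nor Igf2r. In Cdk1 Liv-/- samples Meg3 moved from the seventh to the third place of the 10, with no overlap with Igf2 above or Grb10 below it in hepatocytes or in whole liver.

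The first question was which members differ between genotypes in hepatocytes, the cells that lost Cdk1. Among isolated hepatocytes, Meg3 was higher in Cdk1 Liv-/- and Mest, Plagl1 and Cdkn1c were lower. These 4 of 10 passed an adjusted p of at most 0.1 in limma together with a change of at least 1 in size on the log2 scale, where 6.37% of all genes tested did (4.20% higher and 2.17% lower). With 1 library left out, 1 to 4 members were called, and with an ordinary two-sample test 1 was, Cdkn1c. The 3 libraries of each genotype did not overlap for 5 members, these 4 and Peg3, against 34.0% of all genes, and the same 5 passed the adjusted p alone, against 18.7%. In whole liver, Meg3 and Dlk1 were called, both higher, where 5.59% of all genes were called (4.59% higher and 1.00% lower). The groups did not overlap for 6 members in whole liver, against 52.1% of all genes, and 6 members passed the adjusted p alone, against 45.6%, shares close to those of the genes in general. The median log2 fold change of the 10 members was -0.39 in hepatocytes and 0.49 in whole liver, beside 0.05 and 0.18 over all genes. When the libraries were rescaled by median-ratio size factors, the whole liver median over all genes fell to 0.01 and the same 2 members were called.

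**Figure D2:**
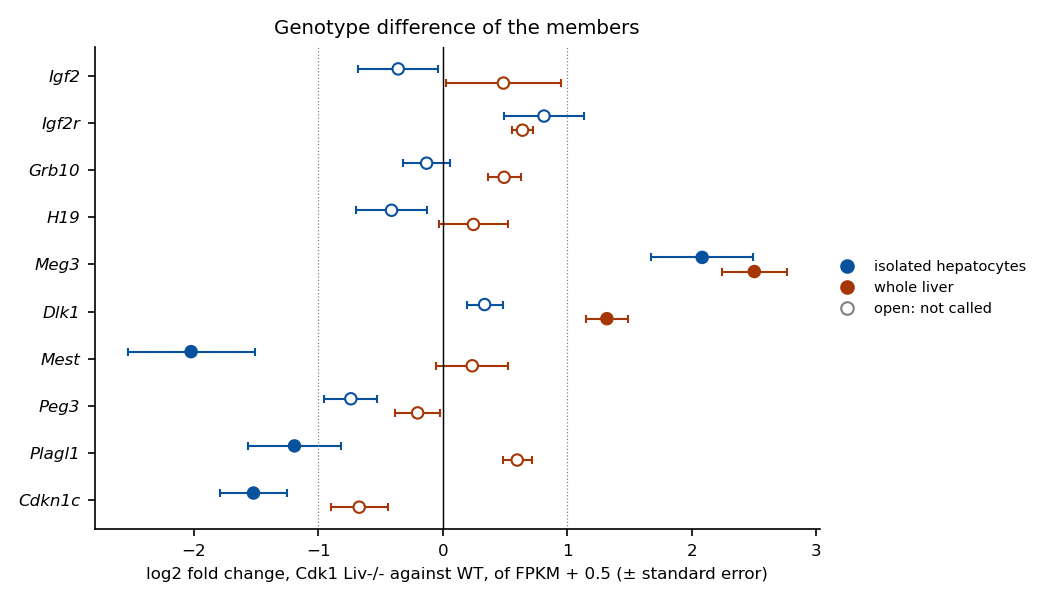
Log2 fold change of FPKM + 0.5 between Cdk1 Liv-/- and WT (horizontal axis, ± standard error) for each gene in isolated hepatocytes and whole liver. Filled points passed an adjusted p of at most 0.1 and the dotted lines that mark a change of 1 in size, and Mest and Plagl1 lie on opposite sides of 0 in hepatocytes and whole liver.

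Igf2 encodes the fetal insulin-like growth factor. It had 396, 521 and 669 FPKM in WT hepatocytes and 308, 632 and 336 in Cdk1 Liv-/- hepatocytes. Whole liver held 389.7, 265 and 352 FPKM in WT and 317, 327 and 967 in Cdk1 Liv-/-. The genotypes overlapped in both compartments, and 1 library, Cdk1 Liv-/- whole liver replicate 3, stood above the other 11. On the log2 scale the difference was -0.36 in hepatocytes (95% interval -1.14 to 0.42, limma adjusted p = 0.499) and 0.49 in whole liver (-0.64 to 1.61, adjusted p = 0.443). Without that library the whole liver value was -0.043, so its direction rests on 1 library.

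Igf2r encodes the receptor that takes up IGF2 for degradation, and Airn is the paternally expressed noncoding RNA that runs through it in antisense. Igf2r had 8.53, 5.51 and 5.15 FPKM in WT hepatocytes and 7.63, 17.2 and 11.0 in Cdk1 Liv-/- hepatocytes, which overlap. The whole liver libraries had 4.68, 4.81 and 4.26 in WT and 6.71, 7.58 and 7.99 in Cdk1 Liv-/-, so each Cdk1 Liv-/- liver was above each WT liver. The difference in whole liver passed the adjusted p and not the fold threshold (log2 fold change 0.64 ± 0.09, SE, limma adjusted p = 0.00542, 1.56-fold). In hepatocytes it was 0.81 ± 0.32 with an adjusted p of 0.161. Airn lay at 1.38 to 1.71 FPKM in WT liver and 2.45 to 3.61 in Cdk1 Liv-/- liver (log2 fold change 0.87, limma adjusted p = 0.0113), beside the member it overlaps. Of the other genes of this cluster, Slc22a3, a transporter of organic cations, was at 0.51 to 1.06 FPKM in WT hepatocytes and 1.82 to 4.17 in Cdk1 Liv-/- hepatocytes, and was called there (log2 fold change 1.33, limma adjusted p = 0.0437), a call lost without WT hepatocyte replicate 3 (1.17, adjusted p = 0.109).

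Grb10 encodes an adaptor that binds insulin and IGF1 receptors and dampens their signal. In hepatocytes it had 17.5, 13.8 and 19.2 FPKM in WT and 14.2, 19.3 and 12.7 in Cdk1 Liv-/-, and the genotypes overlapped (log2 fold change -0.13, 95% interval -0.59 to 0.33, limma adjusted p = 0.693). Whole liver levels of Grb10 were 14.2, 13 and 15.4 in WT and 16.5, 22.4 and 21.9 in Cdk1 Liv-/-, with no overlap. That difference of 0.49 ± 0.13 (SE, limma adjusted p = 0.0364) passed the adjusted p only, and with size factors it was 0.28 with an adjusted p of 0.186.

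H19 is a maternally expressed noncoding RNA that shares enhancers with Igf2. It had 3515, 3864 and 4745 FPKM in WT hepatocytes and 2496, 4508 and 2428 in Cdk1 Liv-/- hepatocytes. Whole liver of WT had 3793, 2902 and 3456, and that of Cdk1 Liv-/- had 2813, 3868 and 5821. The genotypes overlapped in both compartments. The difference on the log2 scale was -0.41 in hepatocytes (95% interval -1.10 to 0.27, limma adjusted p = 0.386) and 0.25 in whole liver (-0.44 to 0.93, adjusted p = 0.525), and without Cdk1 Liv-/- whole liver replicate 3 the latter was -0.028. With 1 library left out, the hepatocyte value was -0.70 to -0.26 (limma adjusted p of 0.0912 to 0.669). Differences inside these intervals were neither shown nor excluded with 3 libraries a group.

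The ratio of H19 to Igf2 within a library was 7.10 to 8.87 in WT hepatocytes and 7.14 to 8.11 in Cdk1 Liv-/- hepatocytes. The livers of WT mice gave 9.73 to 10.9 and those of Cdk1 Liv-/- mice 6.02 to 11.8, where the lowest value was that of replicate 3. The genotypes thus overlapped in this ratio too. Libraries of 1 group that were high in H19 were high in Igf2. The deviations of the 12 libraries from their group means on the log2 scale had a Pearson r of 0.93 between these 2 genes, the highest of any pair of members, which is a description of libraries that share depth and cell make-up.

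Meg3 is the maternally expressed noncoding RNA of the Dlk1-Dio3 cluster and was called in both compartments. It had 9.88, 5.89 and 17.0 FPKM in WT hepatocytes and 39.9, 64.8 and 32.8 in Cdk1 Liv-/- hepatocytes. Whole liver levels of Meg3 were 14.4, 10.9 and 15.5 in WT and 59.7, 71.5 and 113 in Cdk1 Liv-/-. The lowest Cdk1 Liv-/- library was well above the highest WT library in each compartment. This gave log2 fold changes of 2.08 ± 0.41 in hepatocytes (SE, limma adjusted p = 0.0293, 4.23-fold) and 2.50 ± 0.26 in whole liver (adjusted p = 0.0027, 5.66-fold). Leaving out the library with high Xist kept the whole liver call. The hepatocyte call missed the threshold without WT hepatocyte replicate 1 (log2 fold change 2.07, limma adjusted p = 0.1001) and with an ordinary two-sample test in place of limma's moderated one (adjusted p = 0.115).

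Rian and Mirg, the noncoding RNAs that follow Meg3 in the same orientation, moved with it. Rian had 4.11, 2.95 and 5.79 FPKM in WT hepatocytes and 18.4, 46.0 and 15.6 in Cdk1 Liv-/- hepatocytes (log2 fold change 2.38 ± 0.44, limma adjusted p = 0.0236). In whole liver Rian had 5.17, 4.33 and 5.68 in WT and 23.6, 37.0 and 52.8 in Cdk1 Liv-/- (2.72 ± 0.29, adjusted p = 0.00294). Mirg was at 0.29 to 0.47 FPKM in WT hepatocytes and 0.98 to 1.23 in Cdk1 Liv-/- hepatocytes, and at 0.32 to 0.44 and 1.76 to 4.72 in whole liver, where it was called (log2 fold change 1.99, limma adjusted p = 0.00723). Over the 12 libraries Rian was the gene most like Meg3 among the 12282 genes with a mean of at least 1 FPKM (Pearson r = 0.98 of log2 values, and 0.90 within groups), followed by Ywhah (0.97). Groups, depth and cell make-up are shared by these points.

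Dlk1, the paternally expressed gene at the start of this cluster, encodes a transmembrane protein of precursor cells. It had 0.06, 0.02 and 0.23 FPKM in WT hepatocytes and 0.27, 0.28 and 0.21 in Cdk1 Liv-/- hepatocytes, levels that rest on few reads and that overlap. Whole liver had 0.79, 0.58 and 0.78 in WT and 1.90, 2.71 and 3.08 in Cdk1 Liv-/-. Each Cdk1 Liv-/- liver was thus above each WT liver, and the difference was called (log2 fold change 1.32 ± 0.17, SE, limma adjusted p = 0.00481). Since 0.5 is added to each value, this understates the ratio of the means of 2.56 and 0.72 FPKM. In hepatocytes the log2 fold change was 0.33 (95% interval -0.015 to 0.68, adjusted p = 0.19), a value held down by the pseudocount at these levels. The ratio of means was 2.45-fold in hepatocytes, where WT replicate 3 was well above the rest of its group, and 3.58-fold in whole liver. With 1 library left out, the hepatocyte log2 fold change was 0.24 to 0.48 (limma adjusted p of 0.0485 to 0.375). Dio3, the paternally expressed deiodinase gene at the far end of the cluster, went the other way. It was at 1.2 to 1.79 FPKM in WT hepatocytes and 0.17 to 0.88 in Cdk1 Liv-/- hepatocytes, and at 0.66 to 1.08 and 0.35 to 0.50 in whole liver (log2 fold change -0.92 and -0.61, limma adjusted p = 0.1 and 0.0228).

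**Figure D3:**
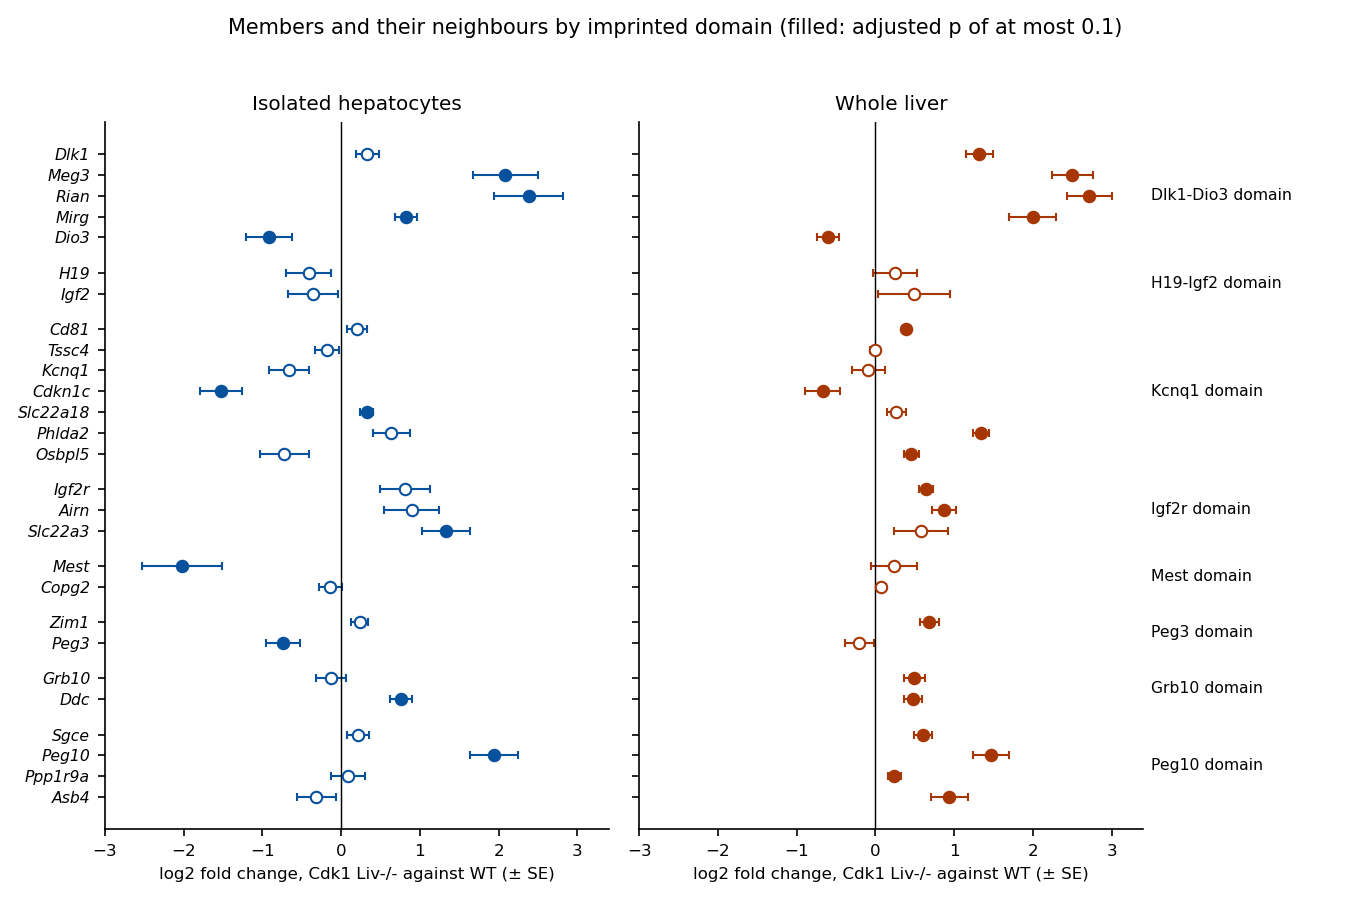
Log2 fold change of FPKM + 0.5 between Cdk1 Liv-/- and WT (horizontal axes, ± standard error) for the members and the tested genes next to them, by imprinted cluster, in isolated hepatocytes and whole liver. Filled points passed an adjusted p of at most 0.1, and in the Dlk1-Dio3 cluster Meg3, Rian and Mirg lie right of 0 and Dio3 left of it in both panels.

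Mest encodes an enzyme of the hydrolase fold expressed from the paternal copy in fetal and growing tissue. It had 9.94, 5.97 and 26.1 FPKM in WT hepatocytes and 2.11, 3.37 and 2.15 in Cdk1 Liv-/- hepatocytes, so all 3 Cdk1 Liv-/- libraries were below all 3 WT libraries. Its log2 fold change was -2.02 ± 0.51 (SE, limma adjusted p = 0.0574, 4.06-fold lower). The call was lost without WT replicate 1 or any 1 of the Cdk1 Liv-/- hepatocyte libraries, at a like size (-2.21 to -1.92, limma adjusted p of 0.106 to 0.154), and also when low genes were not filtered out (0.146) or with an ordinary test (0.161). Levels in whole liver were 15.2, 14.2 and 17.4 in WT and 12.4, 28.4 and 17.7 in Cdk1 Liv-/-, which overlap (0.24, 95% interval -0.48 to 0.95, adjusted p = 0.557). Copg2, which overlaps Mest on the other strand, was at 7.47 to 10.1 FPKM in all 12 libraries and was not called.

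Plagl1 encodes a zinc finger transcription factor known to act on other imprinted genes. It had 1.85, 0.59 and 2.42 FPKM in WT hepatocytes and 0.30, 0.48 and 0.30 in Cdk1 Liv-/- hepatocytes, with no overlap, although WT replicate 2 came close to the Cdk1 Liv-/- libraries. The log2 fold change was -1.19 ± 0.37 (SE, limma adjusted p = 0.0963), just inside the threshold. Over the alternatives it was -1.98 to -0.88, and the Cdk1 Liv-/- mean was 4.5-fold lower than that of WT. The call was kept without WT replicate 2 and lost without any other 1 of the hepatocyte libraries (-1.29 to -0.90, limma adjusted p of 0.166 to 0.226), without the filter (0.211), with a pseudocount of 1 (0.106) or with an ordinary test (0.208). In whole liver the direction was opposite. Plagl1 had 1.98, 1.85 and 1.90 in WT and 2.60, 3.45 and 3.45 in Cdk1 Liv-/-, again with no overlap (0.60 ± 0.12, adjusted p = 0.0145, below the fold threshold). With 1 spread estimated from all 12 libraries that adjusted p was 0.16.

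Peg3 encodes a zinc finger protein expressed from the paternal copy. In hepatocytes it had 29.6, 18.6 and 17.8 FPKM in WT and 13.3, 10.8 and 13.9 in Cdk1 Liv-/-, with no overlap. Its log2 fold change of -0.74 ± 0.21 (SE, limma adjusted p = 0.0807, 1.67-fold lower) passed the adjusted p only. With 1 library left out it was -0.87 to -0.51 (limma adjusted p of 0.0957 to 0.193), a range that crosses the threshold of 0.1. Its levels in whole liver were 13.45, 14.9 and 14.1 in WT and 9.39, 16.0 and 12.1 in Cdk1 Liv-/-, and the genotypes overlapped (-0.20, 95% interval -0.65 to 0.25, adjusted p = 0.422).

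Cdkn1c encodes p57, an inhibitor of cyclin-dependent kinases that holds cells out of the cycle and is expressed from the maternal copy. It had 12.1, 15.6 and 12.6 FPKM in WT hepatocytes and 4.82, 6.02 and 2.74 in Cdk1 Liv-/- hepatocytes. In whole liver it had 14.9, 14.3 and 13.3 in WT and 8.56, 6.24 and 12.3 in Cdk1 Liv-/-. The Cdk1 Liv-/- libraries were below WT in both compartments with no overlap. The log2 fold change was -1.52 ± 0.27 in hepatocytes (SE, limma adjusted p = 0.0207, 2.87-fold lower) and -0.67 ± 0.23 in whole liver (adjusted p = 0.0676), the latter below the fold threshold. The whole liver value missed the adjusted p without any 1 library other than Cdk1 Liv-/- replicate 3 (-0.72 to -0.45, limma adjusted p of 0.1001 to 0.174), and without the filter on low values or with an ordinary test. It was the only member called in hepatocytes in every alternative and with each library left out. Of its neighbours, Phlda2, a maternally expressed inhibitor of placental growth, was higher in Cdk1 Liv-/- whole liver, at 0.85 to 1.08 FPKM against 0.03 to 0.11 (log2 fold change 1.34, limma adjusted p = 0.000996), so genes of this cluster differed in direction.

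Next, the genotype difference itself was compared between hepatocytes and whole liver, as the interaction in a fit of all 12 libraries. Mest, Plagl1 and Dlk1 passed an adjusted p of at most 0.1 on the scale with 0.5 added, where 9.85% of all genes passed (2.35% higher and 7.49% lower). The difference of log2 fold changes was -2.26 ± 0.62 for Mest (SE, limma adjusted p = 0.0754), -1.79 ± 0.41 for Plagl1 (adjusted p = 0.0553) and -0.98 ± 0.24 for Dlk1 (adjusted p = 0.0616). The median over all genes was -0.11, and with size factors, which brought it to 0.01, Dlk1 no longer passed (-0.80, adjusted p = 0.108). The value of Dlk1 was set by the pseudocount, since its hepatocyte levels lie below 0.5 FPKM. With no pseudocount, over the 15789 genes above 0 in every library, its log2 fold change was 1.95 in hepatocytes and 1.82 in whole liver, and their difference of 0.12 had the opposite sign (limma adjusted p = 0.957). Dlk1 was thus not shown to differ between compartments in its genotype difference. The same setting gave -2.46 for Mest and -2.70 for Plagl1 (limma adjusted p = 0.0611 and 0.0482). For Meg3 the difference was -0.42 ± 0.52 (adjusted p = 0.676), and for Cdkn1c -0.85 ± 0.37 (adjusted p = 0.195), so neither was shown to differ between compartments. None of the 3 passed when any 1 of the WT whole liver libraries or Cdk1 Liv-/- whole liver replicate 2 was left out.

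Members were also compared between compartments, first in WT. Only Dlk1 was called, lower in hepatocytes (log2 fold change -1.02 ± 0.16, SE, limma adjusted p = 0.084), a call that other pseudocounts did not give, where 0.466% of all genes were called. Over the alternatives its log2 fold change was -3.45 to -0.64, beside WT means of 0.10 FPKM in hepatocytes and 0.72 in whole liver. The compartments did not overlap for 4 members, against 26.0% of all genes. These were Dlk1 and, higher in hepatocytes, Igf2, Peg3 and Igf2r, of which none passed the test (limma adjusted p of 0.207 to 0.306). In Cdk1 Liv-/- mice, Mest, Plagl1 and Dlk1 were called, all lower in hepatocytes, where 11.0% of all genes were called (9.46% lower). The log2 fold change was -2.66 ± 0.32 for Mest (SE, limma adjusted p = 0.00227), -2.09 ± 0.16 for Plagl1 (adjusted p = 0.000732) and -2.01 ± 0.17 for Dlk1 (adjusted p = 0.000932). Over the alternatives the value was -3.16 to -1.61 for Plagl1 and -3.32 to -1.49 for Dlk1. Cdkn1c did not overlap either (-0.93, adjusted p = 0.0719), which makes 4 members without overlap against 50.7% of all genes. On the adjusted p alone 5 members passed, against 44.7%. These comparisons share libraries with the genotype comparisons above.

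**Figure D4:**
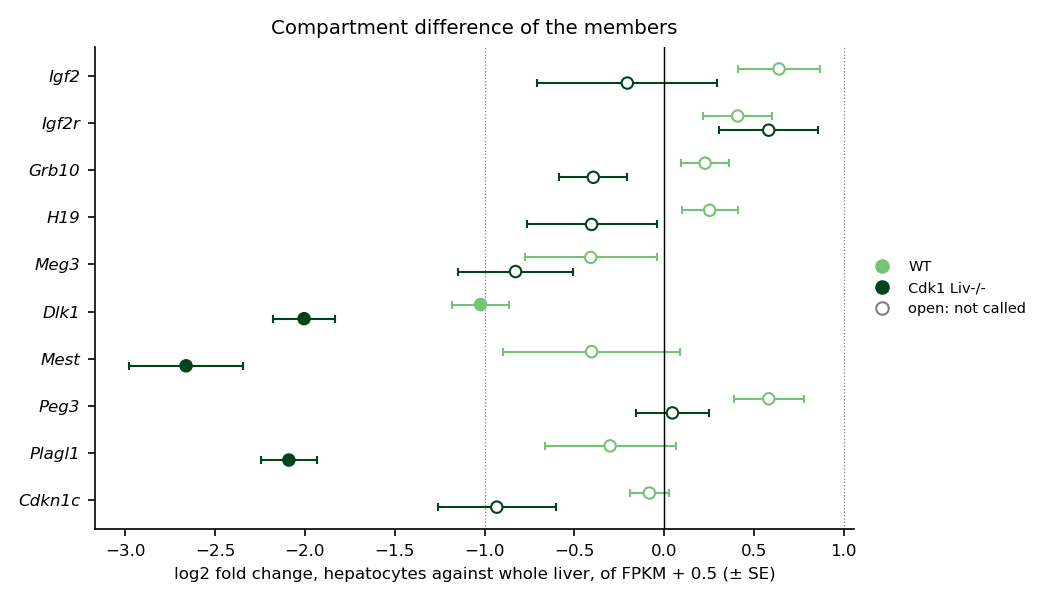
Log2 fold change of FPKM + 0.5 between isolated hepatocytes and whole liver (horizontal axis, ± standard error) for each gene in WT and in Cdk1 Liv-/-. Filled points passed an adjusted p of at most 0.1 and the dotted lines that mark a change of 1 in size, and the points of Mest, Plagl1 and Dlk1 in Cdk1 Liv-/- lie near or below -2.

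Markers of other liver cells moved in the same comparisons. The 14 stellate cell and fibroblast markers had sums of 149, 94.8 and 322 FPKM in WT hepatocytes and 84.9, 92.9 and 71.6 in Cdk1 Liv-/- hepatocytes. Their sums in whole liver were 376, 369.6 and 425 in WT and 733, 940.0 and 674 in Cdk1 Liv-/-. Of the 14, 3 passed the adjusted p in hepatocytes, all lower, where 6.61% of all genes did, and 9 in whole liver, all higher, where 38.0% of all genes did. Without WT hepatocyte replicate 3, none of the 14 passed in hepatocytes (limma, with 3 at an unadjusted p under 0.05). The 10 endothelial markers summed to 113 to 315 FPKM in WT and 51.9 to 80.0 in Cdk1 Liv-/- hepatocytes, with 9 of 10 called lower where 2.17% of all genes were (7 without WT hepatocyte replicate 3), and to 157 to 219.9 and 199.9 to 252 in whole liver. Kupffer cell markers summed to 175 to 598 and 131 to 203 in hepatocytes and to 460.4 to 519.9 and 604 to 832 in whole liver. Of these 10 markers, 1 passed the adjusted p lower in hepatocytes (0 without WT hepatocyte replicate 3) and 4 passed higher in whole liver. The 8 bile duct markers summed to 24.0 to 38.8 FPKM in WT and 74 to 133 in Cdk1 Liv-/- hepatocytes, and to 57.8 to 75.7 and 152 to 287 in whole liver, with 5 of the 7 tested past the adjusted p, all higher, in each compartment, where 12.1% of all genes passed higher in hepatocytes and 38.0% in whole liver. Of these, Spp1, a matrix protein, had log2 fold changes of 2.20 and 1.96 and Sox9, a factor of bile duct cells, 1.38 and 1.44 (limma adjusted p of at most 0.0132). The 5 mesothelial markers all passed the adjusted p in whole liver, all higher, with sums of 0.23 to 1.82 FPKM in WT and 4.73 to 5.85 in Cdk1 Liv-/-, and none did in hepatocytes (limma, with 1 at an unadjusted p under 0.05). Without Cdk1 Liv-/- replicate 3, 3 of the 7 bile duct markers and all 5 mesothelial markers passed in whole liver. Erythroid markers summed to 82.3 to 401 and 20.1 to 77.4 in hepatocytes and to 798 to 1534 and 778 to 1206 in whole liver, and most of each sum is globin. Of these 8 markers, 2 passed the adjusted p in hepatocytes and 3 in whole liver, all lower, where 6.61% and 7.53% of all genes did. Without replicate 3 of WT hepatocytes or of Cdk1 Liv-/- whole liver, 1 and 2 passed. Klf1 was called lower in both compartments (log2 fold change -1.35 and -1.38, limma adjusted p = 0.02 and 0.00527). WT hepatocyte replicate 3, highest among hepatocytes in the stellate, endothelial, Kupffer and erythroid sums, was also the highest WT hepatocyte library in 7 of the 10 members, all but Peg3, Cdkn1c and Igf2r. Without it the log2 fold change in hepatocytes was -1.46 for Mest (limma adjusted p = 0.0544), still called, and -0.90 for Plagl1 (adjusted p = 0.194), no longer called. In bulk RNA, fewer cells of a type and less RNA per cell cannot be told apart, and the part of other cells in these differences was not tested.

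**Figure D5:**
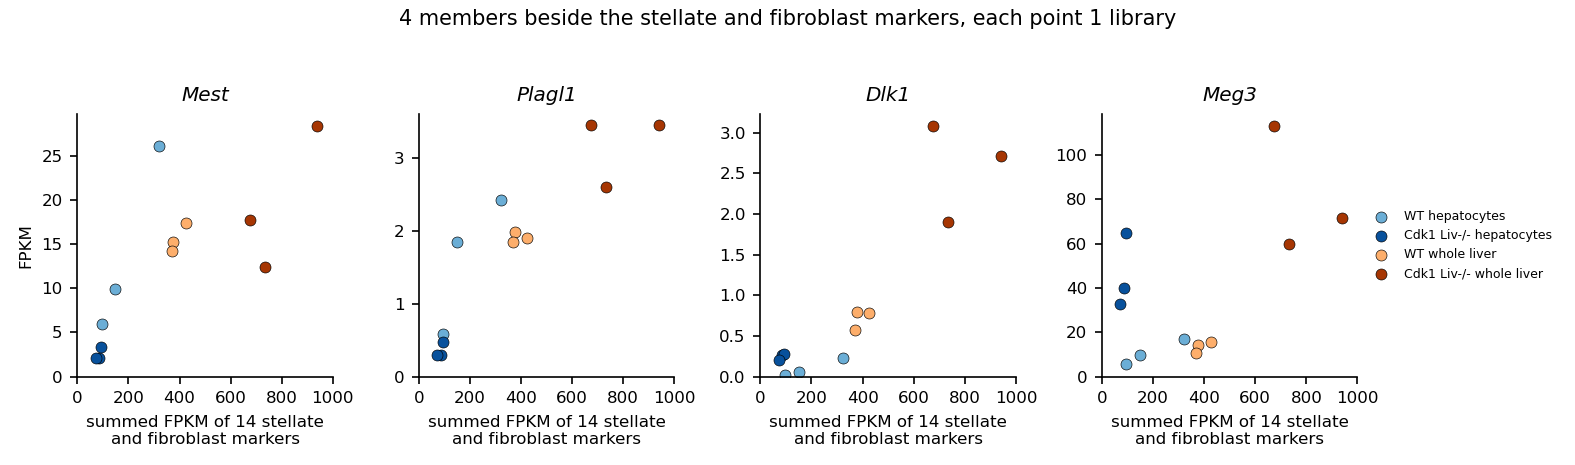
FPKM of Mest, Plagl1, Dlk1 and Meg3 (vertical axes) against the summed FPKM of 14 stellate cell and fibroblast markers (horizontal axes), with 1 point per library. The 3 Cdk1 Liv-/- hepatocyte libraries, at 71.6 to 92.9 in marker sum, are lowest in Mest and Plagl1, while their Meg3 of 32.8 to 64.8 FPKM is above that of all WT libraries.

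Genes whose pattern was most like a member over the 12 libraries were listed for each by Pearson r of log2 values among the 12282 genes. For Mest these were Gnb4 (r = 0.99) and Sptlc2 (0.98), and for Plagl1 Itga8 (0.99) and BC028528 (0.98). For Cdkn1c they were Tmem42 (0.97) and Bhmt2 (0.96), for Igf2r Urb2 (0.99) and Tsc2 (0.98), and for Dlk1 Fis1 and Arl2bp (both 0.98). The best matches were less close for Grb10 (Stk17b and Dennd3, both 0.91), Igf2 (BC002163, 0.85, and Zc3h8, 0.69), Peg3 (Ppp1r3g, 0.81, and Cyp2b9, 0.80) and H19 (Pter, 0.80, and Nme6, 0.79). Mest and Plagl1, which lie on different chromosomes, had an r of 0.95 with each other, and 0.85 within groups. These values describe libraries that share group, depth and cell make-up.

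The IGF pathway around Igf2 was followed in 23 genes, of which 19 were tested. The list holds ligands, receptors, binding proteins of IGFs, binding proteins of Igf2 mRNA, receptor substrates, and Pappa, Pappa2 and Stc2. In hepatocytes 2 of the 19 passed the adjusted p, both called and lower, where 6.61% of all genes passed lower and 12.1% higher. In whole liver 5 passed higher and 5 lower, with 2 called, beside 38.0% and 7.53% of all genes. The median log2 fold change was -0.23 and 0.24, beside 0.05 and 0.18 over all genes. Igfals encodes the liver protein that holds IGFs in a stable complex in blood. It was at 60.4 to 80.8 FPKM in WT and 20.9 to 42.7 in Cdk1 Liv-/- hepatocytes (log2 fold change -1.35, limma adjusted p = 0.0343) and was also called lower in whole liver (-1.25, adjusted p = 0.0405). Igfbp3, the main IGF binding protein of blood, was at 14.6 to 58.8 FPKM in WT hepatocytes, highest in replicate 3, and 3.75 to 5.08 in Cdk1 Liv-/- hepatocytes (log2 fold change -2.65, limma adjusted p = 0.0214), and without that replicate it was still called (-2.14, adjusted p = 0.0261). In whole liver Igfbp3 was at 49.8 to 54.8 FPKM in WT and 22.5 to 29.7 in Cdk1 Liv-/-, with no overlap, and passed the adjusted p below the fold threshold (-0.98, limma adjusted p = 0.00312). Igfbp6 was called higher in whole liver (1.30, adjusted p = 0.0108), at levels of at most 1.72 FPKM. Igf1, the postnatal growth factor of liver, was at 218 to 257 FPKM in WT and 145 to 222 in Cdk1 Liv-/- hepatocytes, which overlap, and was lower without a call in whole liver (-0.38, adjusted p = 0.0364).

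Among 52 other imprinted genes, 39 were tested. In hepatocytes 8 passed the adjusted p higher and 4 lower, and in whole liver 20 higher and 2 lower, where 12.1% and 6.61% of all genes did in hepatocytes and 38.0% and 7.53% in whole liver. Without WT hepatocyte replicate 3, 6 passed higher and 1 lower in hepatocytes. The called genes were Slc22a3, Peg10, Rian (higher) and Gatm (lower) in hepatocytes, and Phlda2, Peg10, Mirg and Rian (all higher) in whole liver. The median log2 fold change over the 39 tested was 0.08 in hepatocytes and 0.31 in whole liver. Peg10, a paternally expressed gene derived from a retrotransposon, was at 0.47 to 1.19 FPKM in WT and 2.78 to 5.35 in Cdk1 Liv-/- hepatocytes (log2 fold change 1.94, limma adjusted p = 0.0152). In whole liver it was at 0.45 to 0.88 and 1.78 to 3.05 (1.47, adjusted p = 0.00781). Gatm, the first enzyme of creatine synthesis, was at 7.18 to 18.6 FPKM in WT and 2.90 to 4.70 in Cdk1 Liv-/- hepatocytes, again highest in WT replicate 3 (log2 fold change -1.39, limma adjusted p = 0.0585, and -1.03 with 0.0768 without that replicate), and at 11.6 to 13.95 and 16.1 to 18.3 in whole liver. Its genotype difference differed between compartments (-1.79, limma adjusted p = 0.05).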

How the data were processed

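Polyadenylated RNA of the 12 libraries was read as single ends of 75 bp. The authors aligned reads with STAR, quantified genes with RSEM 1.2.31 on mm10 and deposited FPKM, with no normalization between libraries, as given in the labels and methods. Values of the 4 groups of 3 were compared as log2(FPKM + 0.5) with limma 3.58.1 (R 4.3.3, eBayes with trend, two-sided), with Benjamini-Hochberg adjustment over 17386 genes. Calls needed an adjusted p no higher than 0.1 together with a change of 1 or more in size on the log2 scale, or the adjusted p alone for the interaction. The pseudocount understates changes of low genes. Members and gene lists were chosen with earlier results of these data known, and neighbours were grouped by cluster after their values were seen. All 10 members were named, with the 2 genes most like each, genes of the imprinted and IGF lists called between genotypes, some of the other lists, and Cdk1, Xist and Y-linked genes as checks. Further genes of the clusters (Airn, Dio3, Copg2, Slc22a3) and Igf1 were named after their values were seen. Gene positions are those of GENCODE M21. Depth was estimated from steps of 1 read in FPKM. The fit was tested on simulated data. Alternatives were other pseudocounts (0.1 and 1, and, added after the data were seen, none over the 15789 genes above 0 in every library), no filter, 2 rescalings, a replicate block, 1 fit of all libraries, an ordinary test and leaving out each library.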

Additional observations from a re-analysis of the deposited data

Results flagged for a closer look

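The genotype difference of 3 members passed the interaction test of genotype and compartment between isolated hepatocytes and whole liver, on the scale with 0.5 added to FPKM. It was -2.26 on the log2 scale for Mest, -1.79 for Plagl1 and -0.98 for Dlk1 (limma adjusted p = 0.0754, 0.0553 and 0.0616). Over the alternatives the adjusted p ranged from 0.0193 to 0.166 for Mest, from 0.00292 to 0.14 for Plagl1 and from 0.0293 to 0.957 for Dlk1. The direction was the same in each for Mest and Plagl1, while Dlk1 came to 0.12 with no pseudocount, so its value above rests on the 0.5 added to levels of 0.02 to 0.28 FPKM in hepatocytes. Markers of other cells passed the same interaction lower, where 7.49% of all genes did: 8 of 10 endothelial, 6 of 14 stellate and fibroblast, 4 of 5 mesothelial and 3 of 10 Kupffer cell markers, and 0 of 7 tested bile duct and 0 of 8 erythroid markers (limma, with 1 of each at an unadjusted p under 0.05). Their part was not tested.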

How the results depend on the processing

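Of 840 values of members under other settings, 760 kept direction and side of the threshold, 54 lost a call, 14 gained one and 12 changed sign; the cause was not tested. In hepatocytes, 4 members were called in the main fit, 2 (Meg3 and Cdkn1c) without the filter on low values and 1 (Cdkn1c) with an ordinary two-sample test; leaving out 1 library gave 1 to 4. In whole liver 2 were called, Meg3 and Dlk1, also with each library left out, and 6 on the adjusted p alone. For the interaction, 3 members passed, and 0 to 4 with 1 library left out: 1 (Plagl1) without Cdk1 Liv-/- hepatocyte replicate 3 or Cdk1 Liv-/- whole liver replicate 3. Dlk1 was called between compartments in WT, and 0 members were with a pseudocount of 0.1, 1 or none, without the filter, with size factors or with an ordinary test, and 0 to 1 with 1 library left out. The log2 fold change of Dlk1 there was -1.02 in the main fit and -3.45 to -0.64 over the alternatives. In Cdk1 Liv-/- mice 3 were called, 5 on the adjusted p alone and 3 to 5 with 1 library left out. With no pseudocount, chosen after seeing the data, the sign changed for Dlk1 in the interaction (0.12). With size factors, the sign changed for Cdkn1c between compartments in WT (0.041) and Igf2 in Cdk1 Liv-/- (0.068). Leaving out 1 library gave ranges across 0 in whole liver for H19 (-0.028 to 0.50), Igf2 (-0.043 to 0.76) and Mest (-0.070 to 0.51), in the interaction for Igf2r (-0.12 to 0.44), between compartments in WT for Mest (-0.97 to 0.051) and Plagl1 (-0.59 to 0.12), and in Cdk1 Liv-/- for Igf2 (-0.53 to 0.32) and Peg3 (-0.13 to 0.23).

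The replicate numbers were not taken as pairs, since libraries of the same number deviated together with Pearson r of only -0.32 to 0.24. With a replicate block, 1 member (Cdkn1c) was called in hepatocytes, 2 in whole liver, 2 in the interaction, 0 between compartments in WT and 3 in Cdk1 Liv-/-. Depth limits Dlk1 in hepatocytes, which rests on few reads.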

Other observations

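Genes of fetal liver that are silenced after birth, and their repressors, were followed in 10 genes, of which 9 were tested. In hepatocytes 4 passed the adjusted p, all higher in Cdk1 Liv-/-, where 12.1% of all genes passed higher, and in whole liver 7, all higher, where 38.0% did. These counts pool fetal genes with repressors and are not counts of fetal genes alone. Zhx2, a repressor described below, is in both counts. Zbtb20, another repressor on the list, was at 1.11 to 1.37 FPKM in WT and 1.47 to 1.76 in Cdk1 Liv-/- whole liver. Afp, the fetal counterpart of serum albumin, was at 74.5 to 110.1 FPKM in WT and 288 to 759 in Cdk1 Liv-/- whole liver (log2 fold change 2.55, limma adjusted p = 0.00701). In hepatocytes it was at 50.5 to 116 and 96.5 to 254, which overlap (1.00, adjusted p = 0.231). Gpc3, an oncofetal proteoglycan, was called in both compartments (log2 fold change 1.35 and 1.03, limma adjusted p = 0.0139 and 0.0162), in whole liver below the fold threshold without Cdk1 Liv-/- replicate 3 (0.85), as were Spink1, a trypsin inhibitor (4.12 and 3.79), and Cd24a, a surface protein of progenitor cells (1.71 and 1.38). Zhx2, a repressor of Afp and H19 after birth, was higher without a call in both (0.69 and 0.41, limma adjusted p = 0.0357 and 0.02). Mdk, a growth factor of fetal tissue, was at 1.49 to 5.75 FPKM in WT and 0.78 to 1.38 in Cdk1 Liv-/- hepatocytes, with no overlap and without passing (-1.21, limma adjusted p = 0.125), and was higher in whole liver (0.67, adjusted p = 0.00642), and the difference between compartments passed (-1.88, adjusted p = 0.0598). Hmga2, a chromatin protein of fetal cells, did not overlap in hepatocytes either, with lower values in Cdk1 Liv-/- at levels of at most 0.25 FPKM in WT (-0.28, limma adjusted p = 0.142).

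Of 17 genes that set or keep imprints, 13 were tested and none was called between the genotypes (limma, with 1 in hepatocytes and 4 in whole liver at an unadjusted p under 0.05), where 6.37% of all genes were in hepatocytes and 5.59% in whole liver, shares that come to less than 1 gene of 13. In hepatocytes Uhrf1, which brings the maintenance methyltransferase to newly copied DNA, was the 1 gene past the adjusted p, where 12.1% of all genes passed higher and 6.61% lower, at 5.76 to 7.52 FPKM in WT and 9.38 to 13.4 in Cdk1 Liv-/- (log2 fold change 0.84, limma adjusted p = 0.0351), and its genotype difference differed between compartments (0.76, adjusted p = 0.0707, and 0.68 with 0.125 without WT hepatocyte replicate 3). In whole liver 4 of 13 passed, all higher, where 38.0% of all genes did, among them Zfp57, a zinc finger protein that guards imprints (0.81, adjusted p = 0.0115).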
